A study of Drosophila melanogaster with 6 samples.

Results

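The tRNAs encoded on the minority coding strand of the fly mitochondrial genome were examined as a set. The rule that defines them uses the gene and its strand and no measured value, though it was set with earlier results of these data known. The members are mito:Gln-TTG, mito:Cys-GCA, mito:Tyr-GTA, mito:Phe-GAA, mito:His-GTG, mito:Pro-TGG, mito:Leu-TAG and mito:Val-TAC, named by amino acid and anticodon. The prefix is left out below where no nuclear tRNA is meant. These are 8 of the 22 mitochondrial tRNAs and of the 106 tRNAs measured, and all 8 were present in the data. The comparison sets are the 14 mitochondrial tRNAs of the majority strand and the 84 nuclear isodecoders, which are nuclear tRNAs that can be told apart by their mature sequence.

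Total RNA came from whole brains of *Drosophila melanogaster* larvae of the L3 stage kept at 25 °C. The neuroblast-biased group comprised 3 samples of insc-Gal4>UAS-aPKC_caax brains, in which the neuroblast driver insc-Gal4 expresses a membrane-targeted aPKC and so produces ectopic neuroblasts, the neural stem cells of the fly. The neuron-biased group comprised 3 samples of Oregon R wild-type brains, which consist mainly of neurons. Both groups are whole brains, so each also holds other cell types, and the genotypes differ as well as the cell mixture. Only tRNAs were listed, so neither label could be checked against cell type markers. The larval age is not stated here, as the sources differ on it.

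tRNA was sequenced by hydro-tRNAseq. In this method tRNAs are first broken into short pieces by mild alkaline hydrolysis, which lessens the loss of reads at modified or tightly folded positions. Each tRNA has 1 value per group, the deposited mean of TMM-normalised read counts (mean TMM, where TMM is a scaling that makes libraries comparable). No value per replicate was at hand and the read depth is unknown here, so no spread between replicates can be set beside any difference below and no test was run between the groups. All differences are therefore descriptions of 2 means, and in bulk samples fewer cells of a type and less RNA per cell cannot be told apart.

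Mitochondria translate their own small set of respiratory chain proteins and use a tRNA set separate from that of the cytosol, with a single tRNA for most codon families. Both strands of the fly mitochondrial genome are transcribed into long precursors, from which the tRNAs are cut at their ends and given a CCA tail. The minority strand carries both ribosomal RNAs and the complex I subunits ND1, ND4, ND4L and ND5 in addition to its tRNAs. Such tRNAs thus share a strand but lie at several places around the genome.

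Within the set, the log2 ratios of the neuroblast and neuron means fell into 2 ranges. Tyr-GTA, Leu-TAG, Cys-GCA and Phe-GAA had higher means in neuroblasts, with log2 ratios (neuroblast over neuron) between 0.91 and 1.70. For Gln-TTG, His-GTG, Pro-TGG and Val-TAC the neuroblast and neuron means lay closer together, with log2 ratios between −0.39 and 0.22. No member had a ratio in the gap of 0.69 that separates Phe-GAA from Gln-TTG on the log2 scale. Several majority-strand tRNAs had ratios within it, among them Ala-TGC at 0.31, Lys-CTT at 0.47 and Asn-GTT at 0.68, while others lay outside it. The gap was seen in these same means, without a spread between replicates, so the ranges are not called separate classes.

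mito:Tyr-GTA, which reads the tyrosine codons, had a mean TMM of 23475 in neuroblasts and 7214 in neurons. This is a 3.25-fold higher mean in neuroblasts and the highest log2 ratio of the 22 mitochondrial tRNAs. Among all 106 tRNAs it ranked 2nd. Its gene *trnY* spans bases 1403 to 1468 of the mitochondrial genome in the Release 6 assembly.

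mito:Leu-TAG, which reads the CUN box of leucine codons, had a mean TMM of 19413 in neuroblasts and 7356 in neurons, a log2 ratio of 1.40 and a fold of 2.64. It thus ranked 3rd among the mitochondrial tRNAs. The other mitochondrial leucine tRNA, Leu-TAA of the majority strand, which reads the remaining leucine codons, had 17087 in neuroblasts and 17101 in neurons, a log2 ratio of 0.00. Per base of gene length, Leu-TAG had 299 TMM and Leu-TAA 259 TMM in neuroblasts, while in neurons Leu-TAG had 113 TMM and Leu-TAA 259 TMM. The order of the pair was thus reversed between the groups. The Leu-TAG gene, *trnL2*, spans bases 12670 to 12734.

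mito:Cys-GCA, the cysteine tRNA, had a mean TMM of 45045 in neuroblasts and 20803 in neurons, a log2 ratio of 1.11. In TMM it had the largest difference of any member, 24242 higher in neuroblasts. mito:Phe-GAA, the phenylalanine tRNA, had 34054 in neuroblasts and 18149 in neurons, a log2 ratio of 0.91. In pig mitochondria the phenylalanine tRNA is also a structural part of the mitochondrial ribosome. The gene *trnC* spans bases 1322 to 1383 and *trnF* bases 6344 to 6408.

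mito:Gln-TTG and mito:His-GTG, the glutamine and histidine tRNAs, had slightly higher means in neuroblasts. Gln-TTG had a mean TMM of 7322 in neuroblasts and 6305 in neurons, a log2 ratio of 0.22. His-GTG had 10029 in neuroblasts and 8997 in neurons, a log2 ratio of 0.16. Both were among the less abundant mitochondrial tRNAs, and whether differences of this size exceed the spread between replicates is unknown. The gene *trnQ* spans bases 97 to 165 and *trnH* bases 8141 to 8206.

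The lowest ratios belonged to Pro-TGG and Val-TAC. mito:Pro-TGG, which reads the whole box of proline codons, had a mean TMM of 29497 in neuroblasts and 34343 in neurons, a log2 ratio of −0.22. mito:Val-TAC, which reads the whole box of valine codons, had 66637 in neuroblasts and 87399 in neurons, a log2 ratio of −0.39. Val-TAC had the lowest log2 ratio of the 22 mitochondrial tRNAs and Pro-TGG the next lowest. The valine tRNA is also a structural part of the mitochondrial ribosome in human cells. The gene *trnP* spans bases 9904 to 9964 and *trnV* bases 14058 to 14130.

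The direction for Pro-TGG depends on the scaling. Over the nuclear isodecoders the median log2 ratio was −0.27, with a lower mean in neuroblasts for most of them. Relative to that median, Pro-TGG was at 0.05 and so turned to the other side of 0, whereas Val-TAC stayed lower at −0.12. Tyr-GTA was then at 1.97 and Leu-TAG at 1.67.

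Levels were compared between the tRNAs per base of gene length, because the members are 61 to 73 bases long. In neuroblasts, Val-TAC had the highest level of the set at 913 TMM per base, followed by Cys-GCA at 727, Phe-GAA at 524 and Pro-TGG at 484. Tyr-GTA had 356, Leu-TAG 299, His-GTG 152 and Gln-TTG 106 TMM per base. In neurons the order was Val-TAC at 1197, Pro-TGG at 563, Cys-GCA at 336, Phe-GAA at 279, His-GTG at 136, Leu-TAG at 113, Tyr-GTA at 109 and Gln-TTG at 91.4 TMM per base. Val-TAC was thus first and Gln-TTG last in both groups, while Tyr-GTA stood 5th in neuroblasts and 7th in neurons. Which neighbours in these orders differ beyond their replicate spread cannot be said from means. The order was the same on TMM without division by length.

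**Figure D1:**
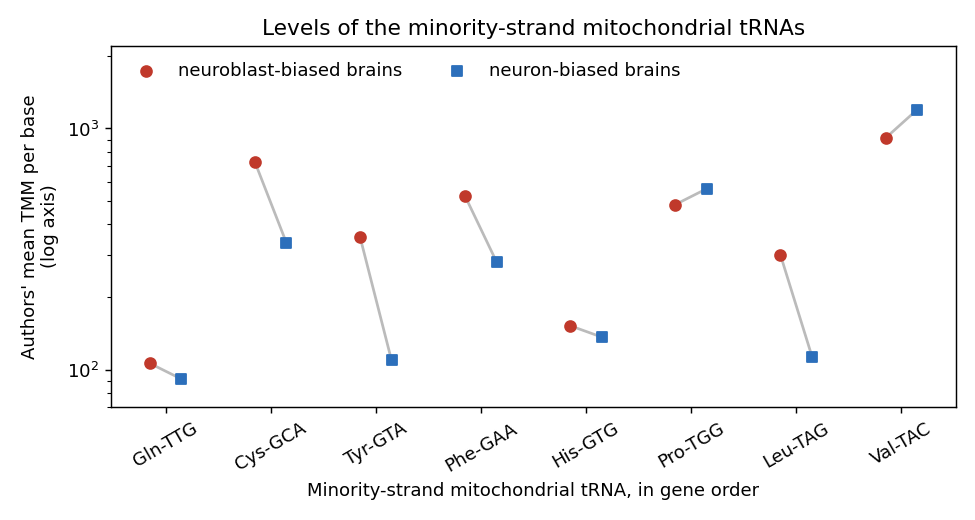
Deposited mean TMM per base of gene length (log axis) of the 8 minority-strand mitochondrial tRNAs, in gene order, with neuroblast-biased brains as circles and neuron-biased brains as squares; each point is 1 group mean without an error bar. Tyr-GTA, Leu-TAG, Cys-GCA and Phe-GAA show the steepest lines, and Val-TAC and Pro-TGG are the members with the neuron mean on top.

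The highest mean TMM per base of the set was 8.60 times the lowest in neuroblasts and 13.1 times the lowest in neurons. This order rests on Val-TAC, since without it the ratio was 6.85 in neuroblasts and 6.16 in neurons. Val-TAC alone was 28.3% of the TMM summed over the set in neuroblasts and 45.9% in neurons. Cys-GCA took 19.1% in neuroblasts and 10.9% in neurons, and Tyr-GTA took 9.97% in neuroblasts and 3.79% in neurons. Across the 8 tRNAs, the log2 TMM in neuroblasts and in neurons had a Pearson's r of 0.81 and a Spearman's rho of 0.83, a description of tRNAs that share their libraries and normalization.

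As a set, the 8 tRNAs summed to a mean TMM of 235473 in neuroblasts and 190566 in neurons, a log2 ratio of 0.31. A higher mean in neuroblasts was found for 6 of the 8, and for 43.4% of all 106 tRNAs, 92.9% of the majority strand and 32.1% of the nuclear isodecoders. Summed over these 6 members, the neuroblast means were higher by 70514 TMM, and those of Val-TAC and Pro-TGG were lower by 25607 TMM. Val-TAC weighs heavily in this sum. Without it, the remaining 7 summed to 168835 in neuroblasts and 103167 in neurons (log2 ratio 0.71). Of the TMM of all 106 tRNAs, the set held 1.66% in neuroblasts and 1.12% in neurons.

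The median log2 ratio was 0.56 over the minority-strand tRNAs, 0.80 over the majority-strand tRNAs and −0.27 over the nuclear isodecoders. A log2 ratio of at least 0.5 in favour of neuroblasts was found for 4 of the 8 members, and it was found for 18.9% of all 106 tRNAs. For the majority strand this share was 64.3%, or 9 of 14, and for the nuclear isodecoders 8.33%. A ratio of at least 1 was found for 3 of the 8, against 10.4% of all tRNAs, 42.9% of the majority strand and 2.38% of the nuclear isodecoders. No member was lower in neuroblasts by 0.5 or more, as were 26.4% of all tRNAs. Those were all nuclear, where they made up 33.3%. The members' share past 0.5 thus lay above that of all tRNAs and below that of the majority strand. With so few tRNAs and no replicate values, neither is called a difference.

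The minority strand held both extremes of the mitochondrial tRNAs. Its log2 ratios spanned 2.09, from −0.39 to 1.70, and those of the majority strand spanned 1.49, from 0.00 to 1.48. The standard deviation across tRNAs was 0.78 for the minority strand and 0.44 for the majority strand. Besides Val-TAC and Pro-TGG, the only mitochondrial tRNA with a ratio below 0 was Leu-TAA, whose means were nearly equal.

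**Figure D2:**
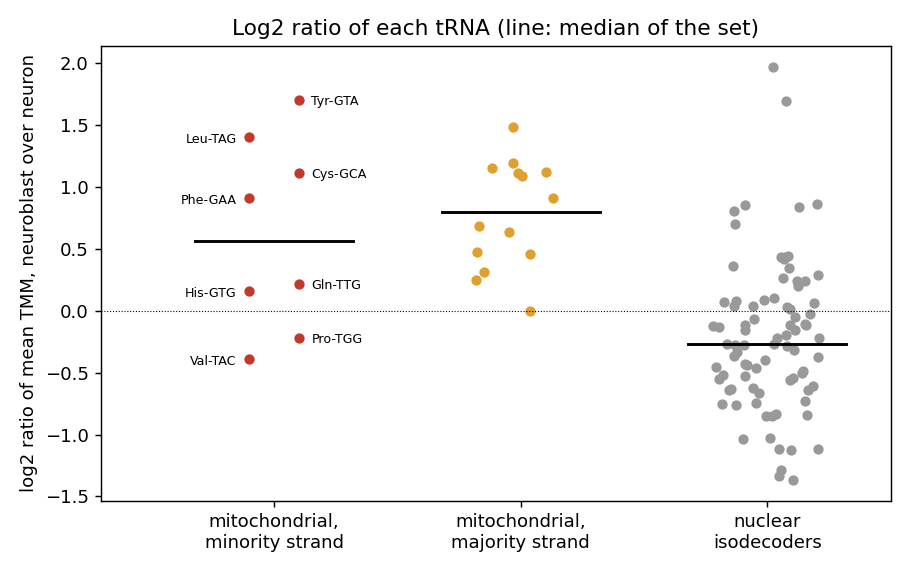
Log2 ratio of mean TMM, neuroblast over neuron, for the 8 minority-strand mitochondrial tRNAs, the 14 majority-strand mitochondrial tRNAs and the 84 nuclear isodecoders; each point is 1 tRNA, horizontal lines are medians, and side-to-side position has no meaning. The minority-strand points fall above 0.9 or below 0.3, while the nuclear points centre on a median of −0.27.

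The difference in medians between the strands, −0.23 for minority minus majority, does not keep its sign. Without Val-TAC it was 0.11, and over tRNAs with a mean TMM of at least 10000, which leaves out Gln-TTG and His-GTG and keeps 10 of the 14 majority-strand tRNAs, it was 0.35. Likewise, the minority strand made up 30.7% of the mitochondrial TMM in neuroblasts and 35.2% in neurons, whereas without Val-TAC it made up 24.1% in neuroblasts and 22.8% in neurons. The lower share in neuroblasts thus rests on Val-TAC. By length, the 8 genes are 36.2% of the mitochondrial tRNA sequence.

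Position on the genome was then compared with the ratios. Gln-TTG lies between the majority-strand genes of Ile-GAT and Met-CAT. The log2 ratio of Gln-TTG, 0.22, was close to that of Ile-GAT at 0.25, while Met-CAT, 5 bases away, was at 1.15. Ile-GAT had a mean TMM of 96860 in neuroblasts and 81312 in neurons, and Met-CAT had 47469 in neuroblasts and 21332 in neurons. Adjoining genes of this cluster therefore did not share 1 ratio.

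Cys-GCA and Tyr-GTA lie beside each other, 19 bases apart, and next to Trp-TCA of the majority strand. All 3 had higher means in neuroblasts, with log2 ratios of 1.11 for Cys-GCA, 1.70 for Tyr-GTA and 0.91 for Trp-TCA. The annotated genes of Cys-GCA and Trp-TCA overlap by 8 bases on opposite strands. Whether the counting used strand is not given in the sources used here, so the part of reads from the overlap in these values was not tested.

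Phe-GAA, His-GTG and Pro-TGG follow each other along the stretch that carries ND5 and ND4. Their log2 ratios were 0.91, 0.16 and −0.22, so the members of this stretch differed widely. Phe-GAA lies 18 bases from Glu-TTC of the majority strand, whose ratio of 1.09 was close to its own. Pro-TGG directly adjoins Thr-TGT of the majority strand with no base between them. Thr-TGT, with a mean TMM of 4438 in neuroblasts and 1586 in neurons, had a log2 ratio of 1.48, so the ratio of Pro-TGG was 1.70 below that of its neighbour. This adjoining pair on opposite strands holds the 2nd highest and the 2nd lowest ratio of the mitochondrial tRNAs. Thr-TGT had the lowest mean TMM of the 22 mitochondrial tRNAs in both groups. Glu-TTC had the next lowest, at 6115 in neuroblasts and 2879 in neurons. Whether ratios at such low levels exceed the spread between replicates is unknown.

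Leu-TAG and Val-TAC flank the large ribosomal RNA gene, with Leu-TAG on the ND1 side and Val-TAC between the large and the small ribosomal RNA. Their log2 ratios were 1.40 and −0.39, nearly the full span of the set. The annotated Val-TAC gene overlaps the large ribosomal RNA gene by 1 base. No ribosomal or messenger RNA was measured, so the tRNAs could not be set against the other transcripts of their strand.

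**Figure D3:**
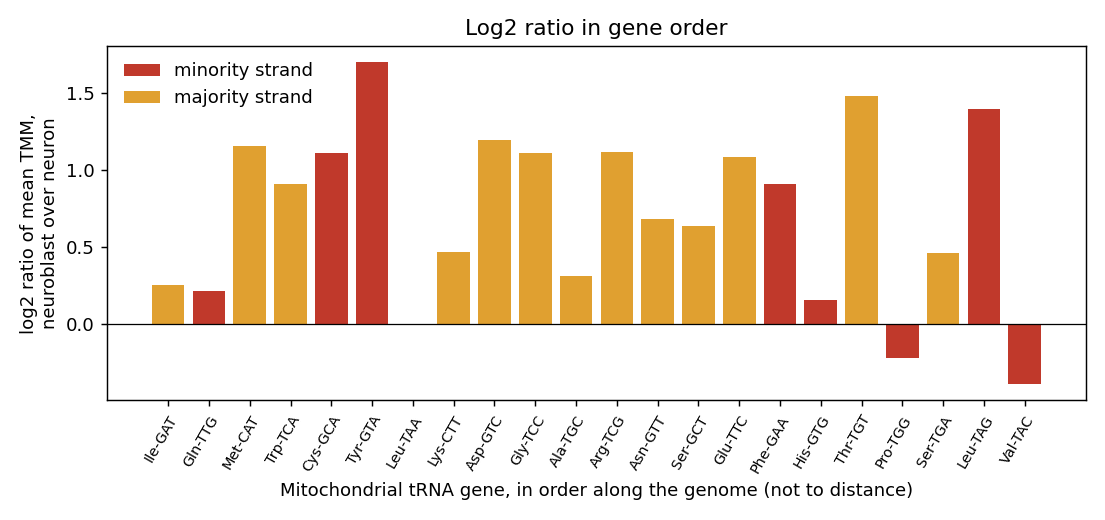
Log2 ratio of mean TMM, neuroblast over neuron, of the 22 mitochondrial tRNAs in gene order along the genome, not to distance, with minority-strand genes in red and majority-strand genes in yellow; bars are ratios of 2 group means without error bars. Cys-GCA and Tyr-GTA stand together at 1.11 and 1.70, while Thr-TGT at 1.48 and Pro-TGG at −0.22 are neighbours on opposite sides of 0.

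The anticodon divides the set evenly. Cys-GCA, Tyr-GTA, Phe-GAA and His-GTG begin with G, which pairs with codons ending in a pyrimidine, and Gln-TTG, Pro-TGG, Leu-TAG and Val-TAC begin with T (U in the RNA). The G group summed to a mean TMM of 112603 in neuroblasts and 55163 in neurons (log2 ratio 1.03). The T group summed to 122870 in neuroblasts and 135403 in neurons (log2 ratio −0.14). The direction of the T sum is not stable, as it was 0.13 relative to the nuclear median and 0.23 without Val-TAC. The groups overlapped all the same, since Leu-TAG of the T group was at 1.40 and His-GTG of the G group at 0.16. On the majority strand the order was the other way round, with log2 ratios of the sums of 0.49 for the 4 tRNAs beginning with G and 0.68 for the 8 beginning with T, the other 2 beginning with C.

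His-GTG and Tyr-GTA carry the GTN type of anticodon, whose G is exchanged for queuosine in many organisms. Their ratios were 0.16 and 1.70, and modification was not measured.

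Each member was lastly set beside the nuclear isodecoders of its own anticodon, summed over isodecoders, 13 in all. The log2 ratio of the mitochondrial tRNA was above that of the nuclear sum for 6 of the 8 anticodons, with a median difference of 0.78. Of the majority-strand tRNAs, 12 have a nuclear counterpart of the same anticodon, and 11 of these were above it, with a median difference of 1.11, so the count is not particular to the members. For the nuclear sums, 6 of 8 had a lower mean in neuroblasts, as had 67.9% of all nuclear isodecoders, and 3 of 8 were lower relative to the nuclear median. The members below their nuclear sum were Gln-TTG, at 0.22 for the mitochondrial and 0.32 for the nuclear tRNAs, and Val-TAC, at −0.39 and −0.22. The nuclear Gln-TTG sum joins isodecoders of opposite direction, Gln-TTG-2-1 at 0.86 and Gln-TTG-1-1 at −0.28.

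Tyrosine showed the widest separation. Mitochondrial Tyr-GTA had a log2 ratio of 1.70 and nuclear Tyr-GTA one of −1.12, a difference of 2.82. The nuclear Tyr-GTA sum was 249409 in neuroblasts and 540226 in neurons. Mitochondrial Tyr-GTA was thus 8.60% of the combined TMM of this anticodon, not divided by length, in neuroblasts and 1.32% in neurons.

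Leucine and cysteine had the next largest differences. Mitochondrial Leu-TAG was 2.04 above nuclear Leu-TAG, which had a mean TMM of 133908 in neuroblasts and 208318 in neurons. Mitochondrial Cys-GCA was 1.20 above the nuclear Cys-GCA sum, which had 196296 in neuroblasts and 208693 in neurons. For cysteine the nuclear sums were almost equal as deposited, so that the separation lay mainly in the mitochondrial tRNA. That nuclear sum is mostly Cys-GCA-1-1, at −0.11. The less abundant Cys-GCA-2-1, Cys-GCA-4-1 and Cys-GCA-3-1 were at 0.80, 0.44 and 0.08.

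For Pro-TGG, as for Val-TAC, both the mitochondrial and the nuclear tRNA had lower means in neuroblasts. The log2 ratios were −0.22 for mitochondrial and −1.13 for nuclear Pro-TGG. These shared directions depend on the scaling. Relative to the nuclear median of −0.27, mitochondrial Pro-TGG was at 0.05, and nuclear Val-TAC, at −0.22, lay above that median. Phe-GAA, like Gln-TTG, had higher means in neuroblasts for both the mitochondrial tRNA and the nuclear sum. The log2 ratios were 0.91 for mitochondrial and 0.26 for nuclear Phe-GAA. Of these anticodons, His-GTG had the smallest mitochondrial part, at 1.09% of its combined TMM in neuroblasts and 0.88% in neurons. Val-TAC had the largest, at 33.8% of the combined TMM of this anticodon in neuroblasts and 36.5% in neurons. Nuclear valine tRNAs with other anticodons are not part of this sum, so it is not a share of all valine tRNAs.

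**Figure D4:**
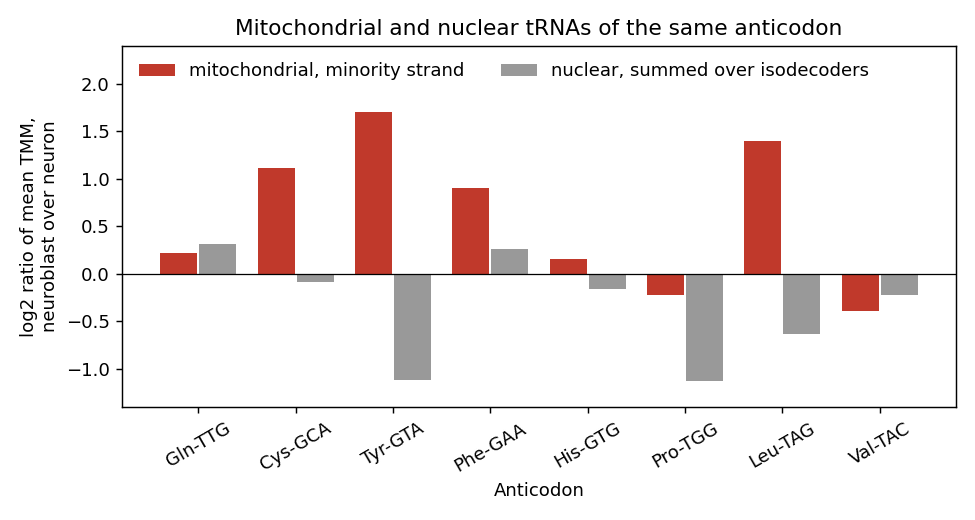
Log2 ratio of mean TMM, neuroblast over neuron, of the 8 minority-strand mitochondrial tRNAs (red) and of the nuclear isodecoders with the same anticodon, summed (grey); bars are ratios of group means without error bars. The bars point in opposite directions for Cys-GCA, Tyr-GTA, His-GTG and Leu-TAG, and the red bar is the lower one for Gln-TTG and Val-TAC. For Cys-GCA and His-GTG the direction of the grey bar depends on the scaling, as −0.09 and −0.16 lie above the nuclear median of −0.27.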

How the data were processed

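tRNA levels were measured by hydro-tRNAseq in 3 neuroblast-biased and 3 neuron-biased samples of larval brain. According to the methods, reads were trimmed with cutadapt, aligned by subread-align against a non-redundant set of mature tRNAs with mismatches allowed, kept above a minimum mapping quality and counted by featureCounts, where a read with several places was divided among them. The counts were then TMM-normalised and batch-corrected with NOISeqBio, and the batches are not named. tRNAs with like sequences can therefore share reads, and batch correction acted on the values before averaging. The source of the mitochondrial reference sequences is not given in the sources used here.

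The authors deposited 1 mean TMM signal per tRNA and group. Their own log2 fold changes, test scores, probabilities, q-values and calls are also in the table and were not used. Depth is unknown, and the planned tests, which need values per sample, were not run. Log2 ratios are neuroblast over neuron, without a pseudocount. TMM per base is the mean TMM divided by the RefSeq gene length, and all 22 mitochondrial tRNAs were matched by name to RefSeq genes of the Release 6 assembly. That annotation gives no strand, and the strand of each gene is general knowledge of the fly mitochondrial genome. A function for the median log2 ratio per set recovered a shift planted in simulated data. Beyond the log2 ratio itself, the calculations behind the reported values were not tested in this way. Python 3.11.15, numpy 2.4.6, pandas 2.3.3, scipy 1.17.1 and matplotlib 3.10.9 were used.

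The named tRNAs are all members, the mitochondrial tRNAs adjoining them or set beside them, and nuclear isodecoders of the same anticodons. The members and comparisons were chosen with earlier results of these data known. Alternatives were 2 other scalings, a pseudocount of 1000 TMM, a minimum mean TMM of 10000, leaving out Val-TAC, means in place of medians and a log2 threshold of 1.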

Additional observations from a re-analysis of the deposited data

How the results depend on the processing

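With the nuclear median set to 0, the median log2 ratio of the 8 tRNAs was 0.83 and that of their summed TMM was 0.57. With both groups scaled to the same summed TMM, the values were again 0.83 and 0.57. The log2 ratio of Pro-TGG was 0.048 and 0.046 under these scalings, against −0.22 as deposited. A pseudocount of 1000 TMM gave a median of 0.53 and a difference between the strands of −0.22. A minimum mean TMM of 10000 kept 6 of the 8 tRNAs and 10 of the 14 of the majority strand. It gave a median of 1.01, a summed log2 ratio of 0.32, a difference between the strands of 0.35, on the other side of 0, and a change in the share of mitochondrial TMM of −4.10 percentage points. Without Val-TAC, these values were 0.91, 0.71, 0.11 and 1.32 percentage points, the last pair on the other side of 0. As deposited, they were 0.56, 0.31, −0.23 and −4.57 percentage points. Means in place of medians gave 0.61 for the set and −0.17 for the difference between the strands. The count of members past 0.5 was 4 under these alternatives, and 3 passed a threshold of 1. The share of all tRNAs past 0.5 was not counted again. Under the 2 scalings, Gln-TTG lay just short of 0.5, at 0.48 in both. Relative to the nuclear median, majority-strand Ile-GAT at 0.52, Ala-TGC at 0.58, Ser-TGA at 0.73 and Lys-CTT at 0.74 also passed 0.5. Leu-TAA, at 0.27, was the only majority-strand tRNA that did not. The members' share then lay further below that of the majority strand than as deposited. The filter and the setting without Val-TAC rest on fewer tRNAs. Among alternatives chosen after seeing the data, leaving out Val-TAC turned the difference between neuroblasts and neurons in the highest over the lowest TMM per base to 0.68, against −4.50 with it. The summed log2 ratio of the members with T first in the anticodon was 0.23 without Val-TAC and 0.13 with the nuclear median set to 0, against −0.14 as deposited. No paired analysis was possible because the columns hold group means, and leaving out a replicate was not run for the same reason. Read depth is unknown, so which of the smaller differences could be resolved is also unknown.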
